A study of Mus musculus with 9 samples.

Results

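The Cyp3a genes encode the cytochrome P450 subfamily that handles the widest range of drugs and steroids in the liver. The expression of 8 mouse Cyp3a genes (Cyp3a11, Cyp3a13, Cyp3a16, Cyp3a25, Cyp3a41a, Cyp3a41b, Cyp3a44 and Cyp3a59) was measured by RNA-seq of the liver in C57BL/6 mice (written C57BL6/J in the methods) on a high-fat diet (HFD). The genes were chosen by symbol, and they are 8 of the 33211 rows of the gene count table. The male mice were 8 weeks old at the start and ate the HFD for 7 weeks. The diet had been kept in a freezer at -20 °C (HFDfre, 5 libraries) or in a fridge at 4 °C (HFDfri, 4 libraries). All mice were wild type and all ate the HFD, so the storage of the diet is the only labelled difference and no chow-fed group enters the comparison.

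Cyp3a enzymes sit in the membrane of the endoplasmic reticulum, where they oxidize steroids, bile acids and many drugs with electrons passed on from P450 oxidoreductase (Por) and cytochrome b5. Their genes are known for induction by the xenobiotic receptors PXR (Nr1i2) and CAR (Nr1i3), which bind DNA as partners of RXR. In adult mouse liver Cyp3a11 is the best studied member, Cyp3a16 is known as a fetal and neonatal form, and Cyp3a41a, Cyp3a41b and Cyp3a44 are known to be higher in females.

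All 8 genes are protein coding and lie on chromosome 5 of GRCm38 (mm10). A cluster of 7 of them spans 676979 bp, from 145436309 to 146113287. Cyp3a13 stands alone, 7514690 bp from the start of that cluster, at 137892932 to 137921619 on the minus strand. Only Cyp3a59 is on the plus strand. In coding sequence, Cyp3a25 and Cyp3a59 were 97.5% identical, Cyp3a11 was 92.8% to 95.2% identical to Cyp3a16, Cyp3a41a, Cyp3a41b and Cyp3a44, and Cyp3a13 was 75.4% to 77.0% identical to every other member. Cyp3a41a and Cyp3a41b were 99.9% identical and shared 82.9% of the 150-base windows of the Cyp3a41a transcript, so their counts are uncertain as separate values. Cyp3a25 and Cyp3a59 shared 0.586% of the Cyp3a25 windows, and Cyp3a11, Cyp3a13, Cyp3a16 and Cyp3a44 shared no window with another member. Cyp3a13 overlaps Gm15502 on the same strand, and how the counting split reads between them is unknown.

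The promoters of Cyp3a11, Cyp3a25, Cyp3a59 and Cyp3a13 are shown because these 4 genes carry the comparison between paralogs. Each window runs from 250 bases before to 50 bases after the RefSeq start of the gene (GRCm38.p6), in the direction of transcription. Capitals mark matches, on either strand, to 5 motifs. AGGTCA and AGTTCA are half-sites of nuclear receptors such as PXR, CAR and RXR, CAAAGTCCA is a form of the HNF4A site, TATAA is the core of the TATA box and TTCNNNGAA is the STAT5 site.
Cyp3a11, chr5:145879805-145880104 (- strand): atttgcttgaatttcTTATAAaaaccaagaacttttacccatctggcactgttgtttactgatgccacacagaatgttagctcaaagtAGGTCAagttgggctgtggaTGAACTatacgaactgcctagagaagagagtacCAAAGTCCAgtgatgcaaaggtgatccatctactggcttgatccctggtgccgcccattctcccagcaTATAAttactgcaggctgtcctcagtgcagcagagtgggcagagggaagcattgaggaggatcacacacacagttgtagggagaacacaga
Cyp3a25, chr5:146009569-146009868 (- strand): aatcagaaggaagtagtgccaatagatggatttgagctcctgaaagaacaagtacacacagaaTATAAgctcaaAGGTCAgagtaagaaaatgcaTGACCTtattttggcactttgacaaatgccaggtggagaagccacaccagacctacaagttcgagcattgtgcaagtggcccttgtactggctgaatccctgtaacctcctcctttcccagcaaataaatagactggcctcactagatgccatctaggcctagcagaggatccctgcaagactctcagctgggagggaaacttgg
Cyp3a59, chr5:146079008-146079307 (+ strand): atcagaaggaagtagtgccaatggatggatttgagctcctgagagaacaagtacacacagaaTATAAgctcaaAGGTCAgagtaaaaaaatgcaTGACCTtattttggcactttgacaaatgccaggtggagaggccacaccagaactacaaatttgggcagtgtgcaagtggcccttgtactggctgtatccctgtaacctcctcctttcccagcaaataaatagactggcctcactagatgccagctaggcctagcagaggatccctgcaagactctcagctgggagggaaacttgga
Cyp3a13, chr5:137921570-137921869 (- strand): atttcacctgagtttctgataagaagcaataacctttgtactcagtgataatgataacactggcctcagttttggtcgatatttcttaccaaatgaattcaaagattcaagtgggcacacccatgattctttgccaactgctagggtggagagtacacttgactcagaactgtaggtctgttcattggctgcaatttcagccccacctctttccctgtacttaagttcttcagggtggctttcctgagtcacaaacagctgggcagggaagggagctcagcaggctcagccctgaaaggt

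Positions give the first base of a match, counted back from the start of the gene. The Cyp3a11 window held AGGTCA at -162, AGTTCA on the opposite strand at -142 and CAAAGTCCA at -109. GENCODE M21, used for the gene coordinates, starts Cyp3a11 at 145879964, upstream of the RefSeq start and within this window. CAAAGTCCA at -109 and TATAA at -41 therefore lie inside the gene as GENCODE places it. The Cyp3a25 and Cyp3a59 windows, which were 96.0% identical, each held a pair of AGGTCA matches on opposite strands, at -176 and -155 in Cyp3a25 and at -177 and -156 in Cyp3a59. The Cyp3a13 window held none of the 5 motifs, and its identity to the other windows was 56.3% to 60.0%. CAAAGTCCA was also present in Cyp3a16, Cyp3a41a and Cyp3a41b but not in Cyp3a44, where AGGTCA was present at -150. No window of a member held TTCNNNGAA. Of 27025 promoters of this length, 16.0% held AGGTCA, 14.0% AGTTCA, 0.477% CAAAGTCCA, 25.5% TATAA and 8.47% TTCNNNGAA. The TATAA matches at -234 and on the opposite strand at -235 in Cyp3a11 overlap each other. A match is a description of letters and says nothing of binding.

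Levels of different genes were set side by side per length, as counts per kilobase of annotated exon, scaled to the same sum in every library as TPM are. By this level the HFDfre order was Cyp3a25 (284 ± 63.2, SD, n = 5), Cyp3a11 (232 ± 68.9), Cyp3a13 (61.4 ± 15.7), Cyp3a59 (8.85 ± 2.97) and Cyp3a44 (0.380 ± 0.242). Cyp3a25 was above Cyp3a11 in each of the 5 HFDfre libraries by this length, although their ranges over libraries overlapped. The order turned in all 5 when the longest coding transcript served as the length (248 ± 53.4 for Cyp3a25 and 423 ± 120 for Cyp3a11). The exons of Cyp3a11 add up to 5093 bp, against 2344 bp for its longest coding transcript. An order by mean level over annotated exon length in all libraries was made for 98 P450 genes, not all of which had a count. In that order Cyp3a25 ranked 15, Cyp3a11 ranked 20, Cyp3a13 ranked 31, Cyp3a59 ranked 45 and Cyp3a44 ranked 66. The members known as female or neonatal forms were the lowest among the members. Cyp3a16 had 4 counts in HFDfre 1 and 0 in the other libraries, Cyp3a41a had 2 counts in HFDfre 2 and 4 in HFDfri 3, and Cyp3a41b had 4 counts in each of those libraries. A count of 0 allows up to 3 counts, or 0.0407 to 0.0578 CPM (counts scaled to library size) depending on the library. These floors cover counting error only.

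**Figure D1:**
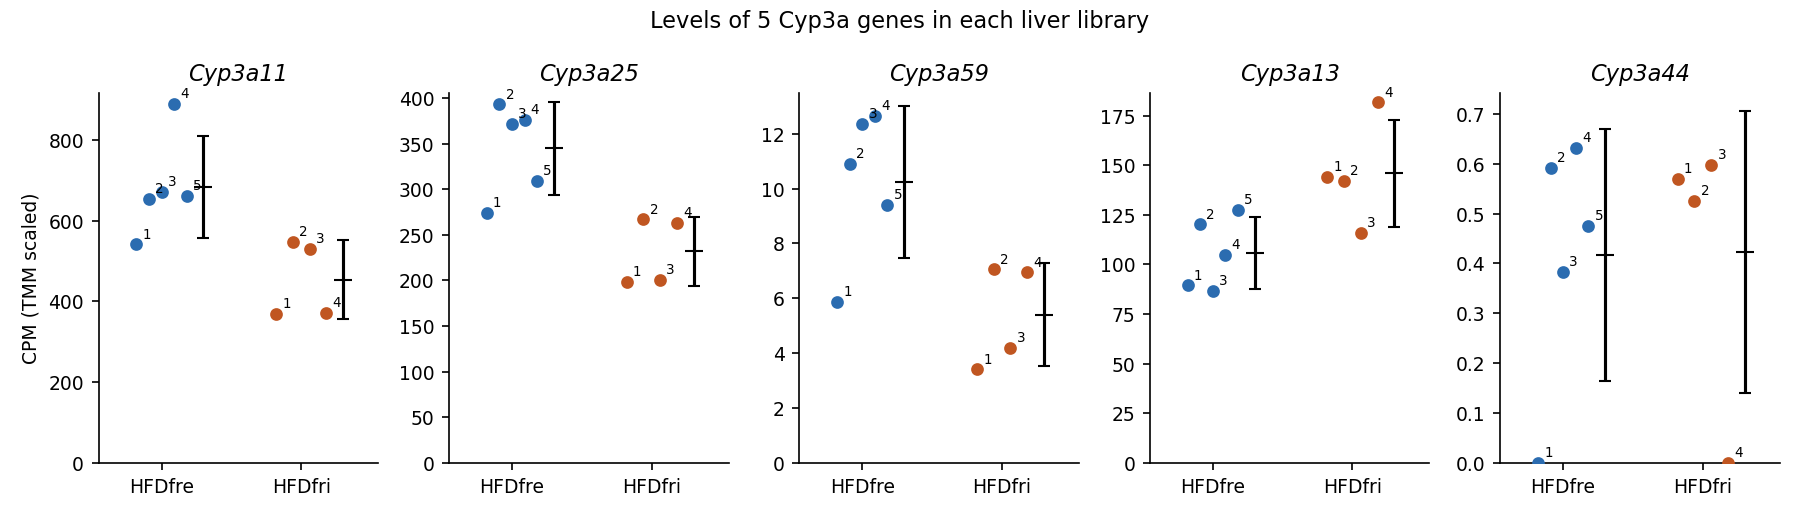
Level of 5 Cyp3a genes in each library, in CPM after TMM scaling on linear axes that start at 0; numbered points are libraries and the bars show mean ± SD (n = 5 HFDfre, n = 4 HFDfri). The Cyp3a11, Cyp3a25 and Cyp3a59 points are mostly lower in HFDfri and the Cyp3a13 points mostly higher, with a mean of 146 against 106 CPM, while Cyp3a44 is at 0 in 1 library of each group.

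The comparison asked whether storage of the HFD in the fridge went with another level of each Cyp3a gene in the liver. The members pointed in different directions. Cyp3a11, Cyp3a25 and Cyp3a59 had lower means in HFDfri, by log2 differences of -0.59, -0.57 and -0.92, and Cyp3a13 had a higher mean, by 0.46. None of the 5 members that could be tested passed an adjusted p of 0.05 with the quasi-likelihood test of edgeR, where 1.05% of the 14220 tested genes did (150 genes). At an unadjusted p under 0.05 stood 4 of the 5, against 21.2% of all tested genes. These were 3 lower in HFDfri, where 9.79% of all tested genes were, and 1 higher, where 11.4% were. DESeq2 called the same 4 at an adjusted p under 0.05, against 8.41% of the 12278 genes it tested. None of the 5 passed with limma-voom (1.04% of all tested genes did), the robust quasi-likelihood test of edgeR (1.32%) or library totals as the scaling (0.534%), nor without HFDfri 1, where 7.65% of the genes tested passed. The remaining 3 members had too few counts to be tested. Nothing in the labels says how the animals were housed or collected, so p-values measure the spread between these libraries only. In bulk liver, fewer cells of a type and less RNA per cell cannot be told apart.

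Cyp3a11 (ENSMUSG00000056035, chr5:145854426-145879964, minus strand) is the main inducible drug-metabolizing form. Its level was 541, 655, 672, 890 and 661 CPM in HFDfre 1 to 5, and 369, 547, 530 and 371 CPM in HFDfri 1 to 4. HFDfre 1 lay just under the highest HFDfri library, so the groups overlapped, and HFDfri 1 and 4 were the lowest of all. The mean was 684 ± 127 (SD, n = 5) against 454 ± 97.5 CPM (n = 4), or -0.59 ± 0.17 (SE) as a log2 fold change, at an edgeR adjusted p of 0.0949. Over 21 alternatives the fold change lay between -0.69 and -0.48 and the adjusted p between 0.0116 (DESeq2) and 0.463, and it passed the threshold under DESeq2 only.

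Cyp3a25 (ENSMUSG00000029630, chr5:145977194-146009618, minus strand) is another abundant member in adult liver. It was at 274, 393, 372, 376 and 310 CPM in HFDfre and at 198, 267, 201 and 263 CPM in HFDfri. Every HFDfri library lay under every HFDfre library, though HFDfri 2 and HFDfre 1 were close. Of the 5 tested members this was the one without overlap, which 7.69% of all tested genes showed. The mean was 345 ± 50.8 against 232 ± 37.9 CPM, which is a log2 difference of -0.57 ± 0.14 (SE). The adjusted p in edgeR was 0.0680, with a range of 0.00392 (DESeq2) to 0.488 over 21 alternatives. Only DESeq2 passed, and the fit without HFDfri 1 just missed (adjusted p = 0.05002, edgeR).

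Cyp3a59 (ENSMUSG00000061292, chr5:146079257-146113287, plus strand) is the near copy of Cyp3a25 at the end of the cluster. It was at 5.87, 10.9, 12.4, 12.7 and 9.42 CPM in HFDfre and at 3.40, 7.05, 4.19 and 6.94 CPM in HFDfri. Only HFDfre 1 fell among the HFDfri libraries, and the lowest values in HFDfri were again in libraries 1 and 3, as for Cyp3a25. The mean was 10.2 ± 2.76 against 5.40 ± 1.88 CPM, or -0.92 ± 0.26 (SE) on the log2 scale. The adjusted p was 0.0959 (edgeR), with a range of 0.0106 (DESeq2) to 0.486 over 20 alternatives. Only DESeq2 passed.

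Cyp3a13 (ENSMUSG00000029727) is a form known from both liver and intestine. It was at 89.5, 120, 86.8, 105 and 128 CPM in HFDfre and at 144, 142, 116 and 182 CPM in HFDfri. HFDfri 3 lay within the HFDfre range and the other HFDfri libraries lay above it. The mean was 106 ± 18.1 against 146 ± 27.1 CPM, a log2 fold change of 0.46 ± 0.15 (SE). Its edgeR adjusted p was 0.117, with a range of 0.0461 (DESeq2) to 0.498 over 21 alternatives. Only DESeq2 passed.

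Cyp3a44 (ENSMUSG00000054417, chr5:145773983-145805874, minus strand) had 0, 38, 25, 45 and 34 counts in HFDfre and 32, 38, 44 and 0 counts in HFDfri. It was absent from the counts of 1 library of each group and between 25 and 45 counts in all others. The mean was 0.416 ± 0.253 against 0.423 ± 0.284 CPM, and the log2 fold change of 0.02 ± 0.91 (SE, adjusted p = 0.994, edgeR) had an error too wide to show a difference of the size seen in the other members.

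**Figure D2:**
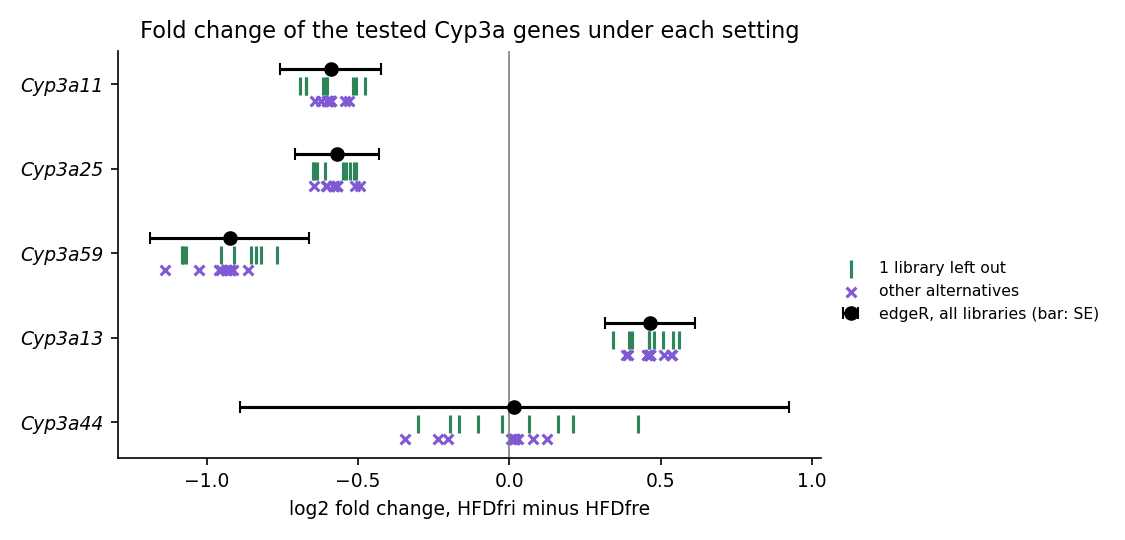
Log2 fold change (HFDfri minus HFDfre) of the 5 tested Cyp3a genes; the black point and bar give the edgeR value ± SE, green ticks the fits without 1 library and purple crosses the other alternatives. Cyp3a11, Cyp3a25 and Cyp3a59 stay under 0 and Cyp3a13 over 0 in each fit, whereas Cyp3a44 lies on both sides, from -0.35 to 0.43.

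The direction of Cyp3a11, Cyp3a25, Cyp3a59 and Cyp3a13 was the same in each alternative run, with TMM, DESeq2 size factors or library totals as the scaling. The ribosomal RNA-like locus Gm26924 took 1.20% to 11.1% of counts in HFDfre and 0.466% to 5.21% in HFDfri. Among the 5 libraries with a share under 3% (HFDfre 3 and 5, HFDfri 1, 2 and 4), the log2 fold changes were -0.64 for Cyp3a11, -0.49 for Cyp3a25, -0.91 for Cyp3a59 and 0.54 for Cyp3a13. The libraries over 3% hold HFDfri 3 as their only fridge library and gave no comparison.

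Whether the paralogs responded differently was tested on the log2 ratio of 2 members within each library, in which the scaling of the library cancels. Of 6 pairs among the 4 members with a mean of at least 1 CPM, the 3 pairs with Cyp3a13 shifted between the groups and the 3 pairs without it did not pass. The ratio of Cyp3a11 to Cyp3a13 is taken first. It was 2.60, 2.45, 2.95, 3.09 and 2.37 on the log2 scale in HFDfre and 1.36, 1.94, 2.19 and 1.03 in HFDfri, with no overlap. The difference of the means was -1.06 with a 95% interval of -1.73 to -0.39, which is a ratio 0.479 times as high in HFDfri (two-sided exact permutation test over the libraries, p = 0.00794, adjusted over the 6 pairs 0.0159).

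The log2 ratio of Cyp3a13 to Cyp3a25 was -1.61, -1.71, -2.10, -1.84 and -1.28 in HFDfre and -0.46, -0.91, -0.79 and -0.53 in HFDfri. Each HFDfri library was above each HFDfre library. The difference was 1.03 (95% interval 0.59 to 1.46, exact permutation p = 0.00794, adjusted 0.0159), or a ratio 2.05 times as high. For Cyp3a13 to Cyp3a59, the log2 ratio ran from 2.81 to 3.92 in HFDfre and from 4.33 to 5.39 in HFDfri, again without overlap. That difference was 1.40 (95% interval 0.67 to 2.17, exact permutation p = 0.00794, adjusted 0.0159), or a ratio 2.64 times as high. A p of 0.00794 is the smallest that 5 against 4 libraries can give. The 3 pairs share Cyp3a13 and are not separate observations.

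No pair within the cluster passed with all libraries in the test. Cyp3a11 to Cyp3a25 differed by -0.03 (95% interval -0.49 to 0.41, exact permutation p = 0.905), a range that leaves room for a shift of almost the size of either gene's own change. Cyp3a11 to Cyp3a59 differed by 0.34 (95% interval -0.39 to 0.98, exact permutation p = 0.262, adjusted 0.314). Cyp3a25 to Cyp3a59 differed by 0.37 (95% interval -0.11 to 0.82, exact permutation p = 0.0794, adjusted 0.119). That pair did pass without HFDfre 1 (adjusted p = 0.0429, exact permutation), together with the 3 pairs that hold Cyp3a13. Among the 5 libraries with a Gm26924 share under 3% the 3 ratios with Cyp3a13 did not overlap either and differed by -1.22, 1.05 and 1.53. Cyp3a25 to Cyp3a59 did not overlap there as well (difference 0.47), and 2 against 3 libraries cannot give a p under 0.1. Without HFDfre 2, 3, 4 or 5 no pair passed the adjusted threshold (smallest adjusted p = 0.0571, exact permutation). There 4 against 4 libraries cannot give a raw p under 0.0286, and 3 pairs had that smallest p each time.

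**Figure D3:**
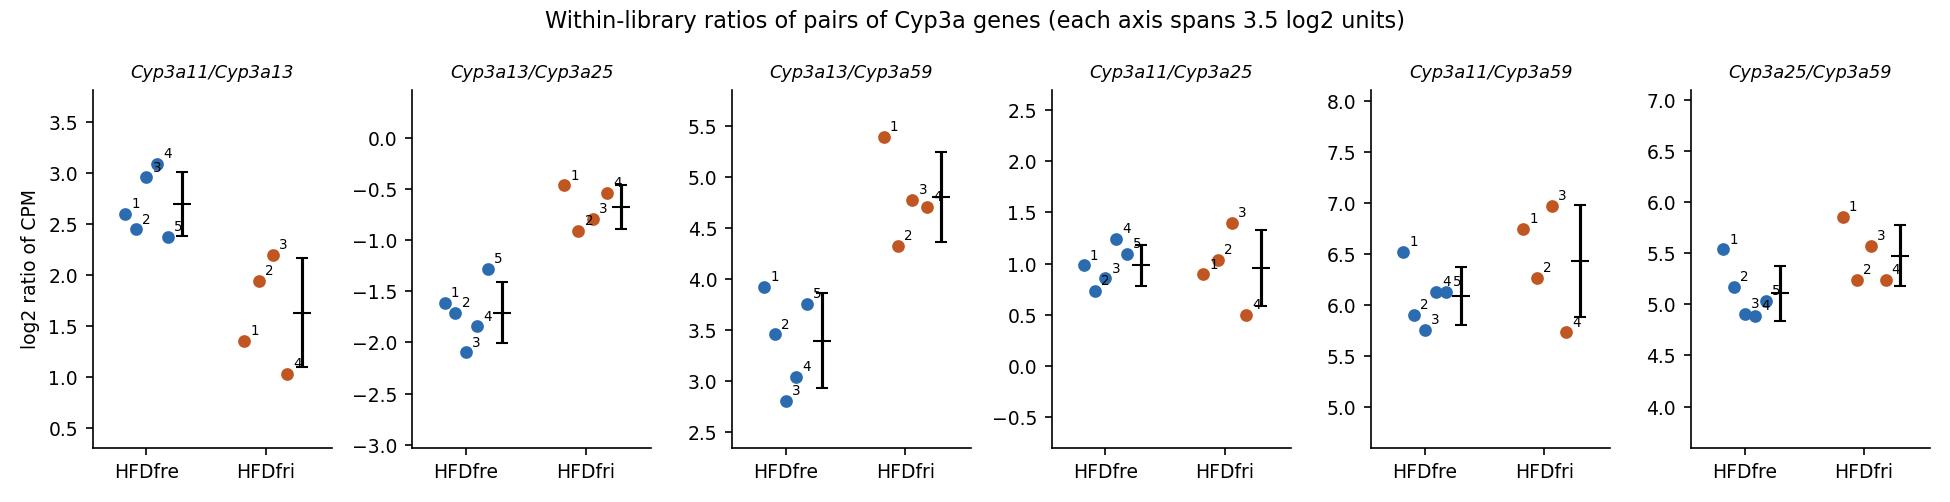
Log2 ratio of CPM of 2 Cyp3a genes within each library for the 6 pairs, each panel spanning the same number of log2 units; numbered points are libraries and bars show mean ± SD (n = 5 HFDfre, n = 4 HFDfri). The 3 panels with Cyp3a13 show separate groups, with differences of -1.06, 1.03 and 1.40, and the 3 other panels show overlapping groups.

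The same shift was seen in the make-up of the family. Per kilobase of annotated exon, Cyp3a13 made up 10.6% ± 1.93 (SD, n = 5) of the summed Cyp3a level in HFDfre and 19.6% ± 3.68 (n = 4) in HFDfri. Cyp3a25 went from 48.6% ± 3.13 to 44.0% ± 3.30, Cyp3a11 from 39.3% ± 3.13 to 35.3% ± 6.52 and Cyp3a59 from 1.48% ± 0.258 to 1.05% ± 0.263. With the longest coding transcript as the length, Cyp3a13 held 7.16% ± 1.35 and 13.8% ± 3.26, and Cyp3a11 led with 57.6% ± 3.19 and 53.2% ± 7.11. The summed level itself was 586 ± 141 in HFDfre and 480 ± 106 in HFDfri and overlapped. These shares are not tested apart from the ratios above, since they are made of the same values.

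**Figure D4:**
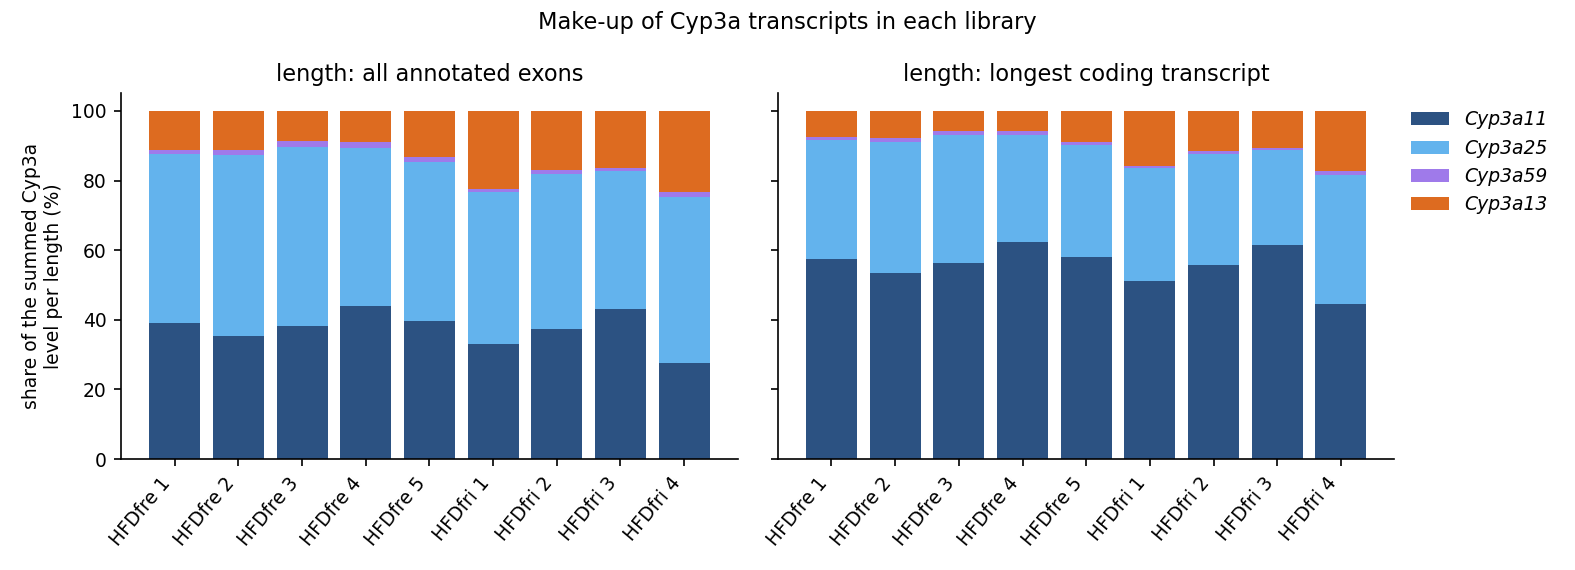
Share of each gene in the summed Cyp3a level per length, in percent, for each library, with all annotated exons (left) or the longest coding transcript (right) as the gene length. The Cyp3a13 band at the top is taller in the 4 HFDfri libraries, with a mean of 19.6% against 10.6% on the left, while the relative size of the Cyp3a11 and Cyp3a25 bands depends on the length used.

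Within the groups, the near copies Cyp3a25 and Cyp3a59 varied together. After the group means were subtracted, log2 CPM of Cyp3a25 and Cyp3a59 over the 9 libraries gave a Pearson r of 0.943 (exact permutation p = 0.0059, adjusted over 6 pairs 0.0354) and a Spearman rho of 0.900 (exact permutation p = 0.0128, adjusted 0.0771). Without the 2 libraries farthest from the median of Cyp3a25, r was 0.908. The genes share 0.586% of the 150-base windows of Cyp3a25 and 0.649% of those of Cyp3a59. Cyp3a25 was at 345 CPM in HFDfre and Cyp3a59 at 10.2 CPM, so reads from shared windows could weigh more in Cyp3a59. Their part in the correlation, and in the fold change and ratios of Cyp3a59 above, was not tested. The other 5 pairs had r from -0.231 to 0.505, and none passed. For Cyp3a11 and Cyp3a25, whose means were both lower in HFDfri, r was 0.383.

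The genes whose pattern was most like that of Cyp3a11, by Pearson r of log2 CPM after subtraction of the group means over all libraries, were Daam1 (a formin that acts on actin), 1700052N19Rik, Aldh1b1 (a mitochondrial aldehyde dehydrogenase), Enpp2 (the secreted lysophospholipase D autotaxin) and Cgnl1 (a cell junction protein). Their r ran from 0.927 to 0.949 among the 7088 genes whose log2 CPM averaged 3 or more, and the libraries (n = 9) share their depth and composition. None of the 5 differed between the groups at an adjusted p of 0.05 (edgeR, 0.167 to 0.754). Cyp3a25 ranked 2058 and Cyp3a13 ranked 4841 on the same scale.

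Of the receptors that regulate Cyp3a genes, CAR fell in HFDfri and PXR did not pass the test. Nr1i3, which encodes CAR, was at 420, 630, 593, 486 and 446 CPM in HFDfre and at 212, 273, 262 and 346 CPM in HFDfri. All HFDfri libraries lay under all HFDfre libraries. The mean was 515 ± 92.2 against 273 ± 55.4 CPM, a log2 fold change of -0.92 ± 0.16 (SE, adjusted p = 0.0333, edgeR). It passed in 12 of 21 alternatives, with fold changes of -1.05 to -0.82 and adjusted p from 8.08e-06 to 0.408. The call was lost without HFDfre 2 (0.0509), HFDfre 3 (0.0932), HFDfre 4 (0.0547), HFDfre 5 (0.0705) or HFDfri 3 (0.0965) in edgeR, each an adjusted p.

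Nr1i2, which encodes PXR, was at 69.9 ± 9.47 against 65.1 ± 6.57 CPM, a log2 fold change of -0.10 ± 0.11 (adjusted p = 0.634, edgeR). Whether the receptors differ in their change was not tested. Rxra, the shared partner, was at 214 ± 20.5 against 266 ± 38.7 CPM (adjusted p = 0.159, edgeR). Hnf4a, the hepatocyte factor of the CAAAGTCCA site, was at 327 ± 22.3 against 450 ± 57.2 CPM without overlap, a log2 fold change of 0.46 ± 0.10 that just missed the threshold (adjusted p = 0.0566, edgeR) and passed in 5 of 21 alternatives. The bile acid receptor Nr1h4 (log2 fold change -0.22 ± 0.12, adjusted p = 0.320) and the corepressor Nr0b2 (0.60 ± 0.19, adjusted p = 0.117) did not pass in edgeR. Nfe2l2, named after its value was seen, was at 66.7 ± 9.46 against 49.9 ± 0.600 CPM without overlap. Its log2 fold change of -0.42 ± 0.10 did not pass (adjusted p = 0.0701, edgeR). Of the 21 tested regulators 1 fell and none rose, with a median log2 fold change of 0.09 beside -0.01 over all tested genes, and 6 higher and 4 lower at an unadjusted p under 0.05. Without HFDfri 1, edgeR called 4 regulators higher and 5 lower, and with library totals as the scaling it called none. DESeq2 called 3 higher and 3 lower. Over all tested genes, edgeR called 7.65% without HFDfri 1 and 0.534% with library totals, and DESeq2 called 8.41%. These shares also stand beside the counts of the gene lists and other P450 genes that follow.

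The genes of electron transfer to P450 enzymes and of heme metabolism, both its making and its breakdown (Hmox1 and Blvrb), did not pass. Among 16 tested genes none passed an adjusted p of 0.05 in edgeR, 1 was higher and 7 were lower at an unadjusted p under 0.05, DESeq2 called 1 higher and 4 lower, and the median log2 fold change was -0.14. Without HFDfri 1, edgeR called 2 higher and 3 lower. Por was at 363 ± 85.2 against 389 ± 89.3 CPM (log2 fold change 0.10 ± 0.18, adjusted p = 0.798, edgeR). Cyb5, the cytochrome b5 gene now named Cyb5a, was at 1175 ± 181 against 843 ± 123 CPM (-0.48 ± 0.14, adjusted p = 0.0999, edgeR). Alas1, the first enzyme of heme synthesis, had a log2 fold change of -0.34 ± 0.21 (adjusted p = 0.390, edgeR).

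Other genes known as targets of PXR and CAR fell in 4 of 28 cases and rose in none, with a median log2 fold change of -0.26. At an unadjusted p under 0.05, 10 were lower and 1 was higher. Over all tested genes edgeR called 1.05% (79 lower and 71 higher), and 9.79% were lower and 11.4% higher at an unadjusted p under 0.05. The 4 targets that fell all encode glutathione S-transferases, which couple glutathione to reactive compounds. Whether CAR, PXR or another regulator had a part in their fall was not tested. Gstm1 fell from 908 ± 104 to 563 ± 23.2 CPM (log2 fold change -0.69, adjusted p = 0.0293, edgeR). Gsta2 fell from 11.0 ± 2.78 to 4.56 ± 0.769 CPM (-1.27, adjusted p = 0.0293), Gsta1 from 4.70 ± 3.08 to 0.857 ± 0.236 CPM (-2.45, adjusted p = 0.0429) and Gstm2 from 51.1 ± 12.5 to 29.6 ± 3.62 CPM (-0.79, adjusted p = 0.0467), all in edgeR. The number of lower calls went to 0 without HFDfre 3, HFDfre 5, HFDfri 3 or HFDfri 4 and to 2 without HFDfre 4. It was 1 with library totals as the scaling, and DESeq2 called 8 lower and 1 higher. The standard marker genes of CAR and PXR activity were low and did not pass. Cyp2b10 was at 1.69 ± 1.23 against 0.818 ± 0.821 CPM (-1.03 ± 0.70, adjusted p = 0.425, edgeR) and Cyp2c55 at 0.752 ± 0.233 against 0.545 ± 0.144 CPM (-0.46 ± 0.35, adjusted p = 0.479, edgeR).

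Genes known to differ between the sexes in mouse liver were counted too. Several of them were listed with earlier results of these data known, so the counts are not independent evidence of a direction. Of 24 tested female-biased genes 6 fell and none rose, with a median log2 fold change of -0.88. They were Acot3 (-2.45), Cyp4a14 (-1.63), Vldlr (-1.56), Tox (-1.03), Cyp4a10 (-0.86) and Abcd2 (-0.83). Of 28 tested male-biased genes 8 rose and none fell, with a median of 0.56, and those with the smallest p were Selenbp2 (2.47), Serpina1e (2.09), Egfr (1.85), Cyp7b1 (1.51), C6 (1.14) and Ugt2b38 (0.81). The female-biased Cyp3a members did not take part in a way that could be measured, since Cyp3a41a and Cyp3a41b were at 0 to 4 counts and Cyp3a44 at 0 to 45 counts. The count of 6 fell to 1 without HFDfre 2, 3, 4 or 5 or HFDfri 3 or 4 and went to 10 without HFDfri 1. The count of 8 fell to 1 without HFDfre 3, HFDfre 5 or HFDfri 3, to 2 without HFDfre 4 or HFDfri 4, to 3 without HFDfre 1 and to 4 without HFDfre 2. With library totals as the scaling 2 female-biased genes were lower and 11 male-biased genes higher, and DESeq2 called 11 female-biased genes lower, 14 male-biased genes higher and 1 lower. The medians kept their sign in each fit without 1 library, from -1.01 to -0.73 and from 0.46 to 0.70.

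Genes of the liver zones were also described, since Cyp3a11 is known as a pericentral gene. Of 20 pericentral genes none passed an adjusted p of 0.05 in edgeR, 1 was higher and 7 were lower at an unadjusted p under 0.05, DESeq2 called 5 lower, and the median log2 fold change was -0.24. Of 18 periportal genes none passed, 5 were higher and 1 was lower at an unadjusted p under 0.05, DESeq2 called 3 higher, and the median was 0.01. Of 7 tested genes on the fetal and neonatal list none passed in edgeR or DESeq2 and none had an unadjusted p under 0.05. Without HFDfri 1, edgeR called 3 pericentral genes lower and 1 periportal gene higher. From the fetal and neonatal list it called Tat higher there. The other tested genes of that list (Afp, H19, Gpc3, Igf2, Cd24a and Cyp7a1) were not called.

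**Figure D5:**
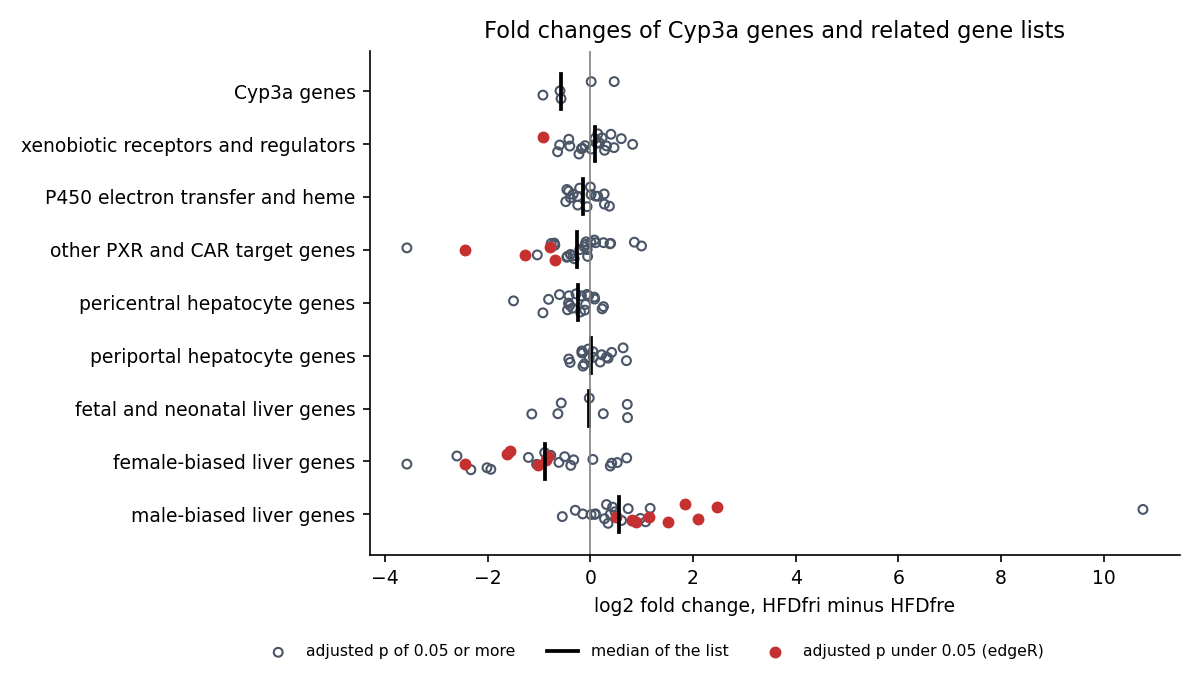
Log2 fold change (HFDfri minus HFDfre) of the Cyp3a genes and of 8 related gene lists; each point is a gene, filled where the adjusted p was under 0.05 (edgeR), and the vertical bar is the median of the list. The 5 Cyp3a points are all open, the glutathione S-transferases are the filled points among PXR and CAR targets, and the point at 10.77 is Moxd1, named after its value was seen, which was at 0 CPM in all HFDfre libraries so that its fitted value depends on the prior count.

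The other P450 genes, the closest relatives of the members in the table, held calls in both directions. Of 65 other tested P450 genes 3 rose and 5 fell at an adjusted p under 0.05, 10 were higher and 15 lower at an unadjusted p under 0.05, and the median log2 fold change was -0.06. The calls with the smallest p were Cyp2c38 (76.4 ± 15.7 to 30.0 ± 5.70 CPM, log2 fold change -1.35), Cyp46a1 (a brain cholesterol hydroxylase, -1.45), Cyp7b1 (an oxysterol hydroxylase, 1.51), Cyp2c70 (a bile acid hydroxylase, 1.20) and the fatty acid hydroxylases Cyp4a10 (-0.86) and Cyp4a14 (-1.63), with adjusted p from 0.0117 to 0.0425 in edgeR. The count of 8 was 1 without HFDfre 3, HFDfre 5, HFDfri 3 or HFDfri 4, 2 without HFDfre 4, 3 without HFDfre 2 and 13 without HFDfri 1.

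Library totals were between 58614917 and 69353439 counts. Alb, the defining hepatocyte gene, took 5.30% to 7.19% of counts in HFDfre and 5.40% to 7.12% in HFDfri. The sum of 12 hepatocyte markers ran from 117118 to 123774 CPM in HFDfre and from 109947 to 145641 CPM in HFDfri. Of these markers 1 rose and none fell at an adjusted p under 0.05 in edgeR, and 6 were higher and 1 was lower at an unadjusted p under 0.05, with a median log2 fold change of 0.19. The one that rose was Fga, the fibrinogen alpha chain (1862 ± 255 to 3672 ± 873 CPM, log2 fold change 0.98, adjusted p = 0.0293, edgeR), named after its value was seen. Shares of other genes were described without a test. Mitochondrial genes took 11.4% to 19.8% of counts in HFDfre and 8.93% to 13.6% in HFDfri, with overlap. Major urinary protein genes took 5.12% to 8.94% in HFDfre and 9.17% to 14.4% in HFDfri, without overlap. The sum of 8 intestinal epithelium markers, of interest because Cyp3a genes are also expressed in gut, was 172 to 229 CPM in HFDfre and 111 to 168 CPM in HFDfri. Of these 4 (Cdh17, Cdx1, Lct and Sis) were at 0 in all libraries. Most of the sum was Fabp2, at 181 ± 24.2 against 129 ± 24.8 CPM (adjusted p = 0.104, edgeR), which was named after its value was seen. Lgals4, named in the same way, fell from 28.9 ± 4.07 to 18.2 ± 2.40 CPM (adjusted p = 0.0367, edgeR). Markers of cholangiocytes, Kupffer cells, endothelium, stellate cells and lymphocytes held no gene with an adjusted p under 0.05 in edgeR (1 cholangiocyte marker was higher and 2 stellate markers lower at an unadjusted p under 0.05), and their sums overlapped between the groups. Of the pancreas markers 5 of 7 were at 0 in all libraries, while the sum of the list was 10.3 to 17.1 CPM in HFDfre and 17.5 to 25.6 CPM in HFDfri. That sum was nearly all Cela1, at 13.6 ± 3.19 against 19.7 ± 3.84 CPM (adjusted p = 0.131, edgeR), named after its value was seen. Of the 6 adipocyte markers Adipoq and Plin1 were at 0 in all libraries, and the sums of 17.6 to 88.9 and 12.2 to 43.5 CPM overlapped, with 1 marker lower at an unadjusted p under 0.05. The part of these measures in the Cyp3a values was not tested.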

How the data were processed

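RNA was extracted from liver with TRIzol and sequenced as paired-end Illumina reads. The labels name a NEBNext Ultra kit and the methods a KAPA RNA HyperPrep kit. Sex, age and feeding come from the methods. The submitters' processing notes name HISAT2, StringTie and the build mm10; annotation and use of strand are not given in the sources used here. The values the authors deposited are estimated counts per gene, unscaled and already whole. They pile up at 4 (3990 gene and library pairs, against 2172 at 3 and 1840 at 5), so counting error is modelled only approximately. Of the gene identifiers 96.5% were in GENCODE M21 (GRCm38), which gave coordinates and lengths. Older symbols were matched (Cyb5 for Cyb5a, Trf for Tf, Emr1 for Adgre1).

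Genes were kept with filterByExpr (14220 of 33211) and compared with edgeR 4.0.16 (R 4.3.3), TMM scaling, the quasi-likelihood test and Benjamini-Hochberg adjustment over all tested genes, as HFDfri minus HFDfre. DESeq2 1.42.0, limma 3.58.1 (voom), other scalings, filters, a replicate block and leaving out each library were alternatives. Ratios used log2 CPM with a prior count of 2 and exact permutation tests, inverted for intervals. Scripts were tested on simulated data. Members, lists and tests were chosen with earlier results of these data known. The named genes were all members, 11 regulators, partners and targets, up to 6 called genes of each list and of the other P450 genes by smallest p, and the 5 genes most like Cyp3a11.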

Additional observations from a re-analysis of the deposited data

Results flagged for a closer look

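Only Cyp3a44 had a library far from the rest of its group, among 22 sets of values searched (the 5 tested members and the 6 ratios in each group), where chance alone flags about 1.1. In HFDfre 1 its log2 CPM was -5.03, the value of 0 counts, and the other HFDfre libraries were between -1.28 and -0.59. In HFDfri 4 it was -5.03 as well, with the other HFDfri libraries between -0.85 and -0.67. The gap to the nearest library was 0.846 and 0.960 of the range of the group. The value of Cyp3a44 was 25 to 45 counts in the other 7 libraries.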

How the results depend on the processing

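The edgeR count of 0 Cyp3a members past the threshold was the same under limma-voom, each other scaling and filter, the replicate block and each library left out. DESeq2 gave 4, and 2 to 4 when 1 library was left out. Of the 6 paralog ratios 3 passed, also with prior counts of 0.5 and 10, against 0 with the replicate block (4 pairs cannot give a p under 0.125), 0 among libraries with a Gm26924 share under 3% and 0 to 4 without 1 library (the fourth was Cyp3a25 to Cyp3a59, without HFDfre 1). The share of Cyp3a11 in HFDfre moved from 39.3% to 57.6% and that of Cyp3a25 from 48.6% to 34.2% with the longest coding transcript as length.

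Calls in the pathway lists (19 genes) went to 53 with DESeq2, 12 with no filter, 0 with the replicate block, 7 with the Gm26924 share as a covariate, 34 with it as a batch term, 1 in libraries with a share under 3%, and 2 to 46 without 1 library. For other P450 genes (8) these were 17, 3, 0, 4, 9, 1 and 1 to 13, and 5 with library totals. The log2 fold change of Cyp3a44 (0.02) turned to -0.35 with limma-voom, -0.20 with the covariate, -0.24 under 3%, and between -0.30 and 0.43 without 1 library. The cause of these shifts was not tested. Nothing in the labels pairs the libraries by replicate number. Deviations from the group mean in libraries of the same number had correlations of -0.136 to 0.0813, which does not settle whether they were paired. The fits by Gm26924 share as a batch term or under 3%, DESeq2 without 1 library and the coding transcript length were chosen after seeing the data. Depth limits Cyp3a16, Cyp3a41a, Cyp3a41b and Cyp3a44.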
